A study of Mus musculus with 4 samples.

Results

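ATP-binding cassette (ABC) transporter genes were examined in an activated mouse B cell line with and without the DNA glycosylase gene Mbd4. A member was any transcript cluster, a set of array probes read as 1 transcript, that the platform's gene table pairs with exactly 1 symbol starting with Abca, Abcb, Abcc, Abcd, Abce, Abcf or Abcg. This gave 49 clusters of 48 genes among 21789 clusters with 1 symbol and 35556 clusters on the array, and Abcb5 was the gene with 2 clusters. The symbols alone decided membership, but the family was taken up because Abcc2 was already known to be higher in the Mbd4 KO arrays of this same comparison. Its values, and its call in the fit over all clusters, are therefore given as a description that supports nothing.

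Mbd4 KO CH12.F3 cells (2 arrays) were compared with control CH12.F3 cells (2 arrays). CH12.F3 is a mouse B lymphoma line that can switch to IgA in culture. Both groups were grown in medium with 6% FCS and both received the same stimuli for 24 hours, namely CD40L at 25% of the volume, TGFb at 0.2 ng/ml and IL4 at 5 ng/ml, so that no resting cells are part of the comparison. The labels do not say how the knockout was made, how many clones the Mbd4 KO cells represent, or whether arrays of 1 group hold RNA of separate cultures. Each p-value here measures nothing beyond the spread among these 4 arrays, possibly a technical one, and a difference between the groups cannot be told apart from a difference between clones. In RNA of a whole culture, a change in the share of cells that express a gene and a change in RNA per cell cannot be told apart either.

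ABC proteins carry a pair of ATP-binding domains, either in 1 chain or by pairing of half-size proteins, and most use ATP to move a substrate across a membrane. The subfamilies divide this work: ABCA proteins move mainly lipids, ABCB proteins move drugs, bile lipids, peptides and mitochondrial substrates, ABCC proteins export organic anions and conjugates or regulate ion channels, ABCD proteins serve peroxisomes and lysosomes, and ABCG proteins export sterols and drugs. ABCE and ABCF proteins have no membrane part and act on ribosomes and translation. In lymphocytes ABC exporters are best known for drug resistance and for the efflux of cholesterol and signalling lipids.

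The targeted gene was checked first. Mbd4 read 6.47 and 6.49 (log2 RMA values) on the Mbd4 KO arrays, against 8.74 and 8.77 on the control arrays. The groups did not overlap and the difference was -2.28 ± 0.066 (log2, SE; limma adjusted p = 0.0002). The position of its probes relative to the deleted part is unknown here. Of 9 measured B cell markers, 8 lay above the array's median on all 4 arrays, the exception being Cr2, and limma called none of the 9 (3 had an unadjusted p under 0.05). Of the markers of other cells, 0 of 5 T cell, 0 of 6 hepatocyte and 0 of 3 erythroid genes were called (1, 0 and 0 at an unadjusted p under 0.05), while Adgre1 was the 1 of 6 macrophage markers that was called, lower by 1.06 (log2). Of these 6, 3 lay above and 3 below zero, and 3 had an unadjusted p under 0.05, Lyz2 (0.24) higher and Cd68 (-0.25) and Adgre1 lower. Over all clusters with 1 symbol limma called 302 at an adjusted p of 0.05, 94 with higher and 208 with lower values in Mbd4 KO cells. An unadjusted p under 0.05 was found for 13.8% of these 21789 clusters.

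Abcc2 encodes MRP2, the organic anion exporter that sends glutathione, glucuronide and sulfate conjugates into bile, kidney tubules and gut. Its cluster read 7.83 and 7.81 on the Mbd4 KO arrays, against 6.54 and 6.55 on the control arrays. Both Mbd4 KO values were thus above the medians of their arrays (6.96 and 6.97), and both control values were below the medians of theirs (6.94 and 6.98). The means were 7.82 ± 0.019 in Mbd4 KO cells and 6.55 ± 0.0086 in control cells (log2, mean ± SD, n = 2 each), a difference of 1.28 ± 0.065 (log2, SE), or 2.42-fold. The difference was the 10th highest of all 21789 clusters, and it lay between 1.26 and 1.29 whichever array was left out.

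Mbd4 protein binds methylated CpG sites, so the CG pairs before the start of Abcc2 are shown with those of the members that had the next largest difference above zero, Abca3, and the next smallest adjusted p, Abcf3. DNA methylation itself was not measured here. The sequences are those of RefSeq on assembly GRCm38.p6, 5′ to 3′ on the gene's strand, and end at the base before the first annotated start. They span chr19:43782058-43782307 (Abcc2), chr17:24351773-24351920 (Abca3) and chr16:20548353-20548555 (Abcf3), all on the + strand. Capitals mark each CG and, in Abcc2, the 1 match to TGACNNNGC, a core of the antioxidant response element bound by NRF2.
Abcc2: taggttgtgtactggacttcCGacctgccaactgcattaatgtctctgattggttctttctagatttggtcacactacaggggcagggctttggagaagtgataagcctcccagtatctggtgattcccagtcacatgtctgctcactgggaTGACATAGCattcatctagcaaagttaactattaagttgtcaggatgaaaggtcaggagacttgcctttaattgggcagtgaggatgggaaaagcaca
Abca3: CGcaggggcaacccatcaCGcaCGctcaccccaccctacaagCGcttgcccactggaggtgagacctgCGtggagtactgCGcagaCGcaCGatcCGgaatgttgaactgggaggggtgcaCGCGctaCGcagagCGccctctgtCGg
Abcf3: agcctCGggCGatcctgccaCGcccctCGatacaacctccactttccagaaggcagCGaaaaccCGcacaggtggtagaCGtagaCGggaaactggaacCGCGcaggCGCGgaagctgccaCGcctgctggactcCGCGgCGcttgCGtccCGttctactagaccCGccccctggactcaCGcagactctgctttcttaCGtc

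The bases printed for Abcc2 held 1 CG in 250, against 14 in 148 for Abca3 and 21 in 203 for Abcf3. Promoter windows of 300 bases (250 before to 50 after a start) were found for 38 of the 48 member genes, 45 windows in all, and the median window held 16 CG, with a range of 1 to 45. Over all 32851 windows of the table the median was 7. Abcc2, with 1 CG in its window, was matched among members only by 1 of the windows of Abcc10, whose other window held 17, and 14.1% of all windows had no more CG than Abcc2. The letters TGACNNNGC, searched on both strands, were present in 7 of 45 member windows (15.6%) and in 12.4% of all windows. TATAAA, also searched on both strands, was in 7 of 45 member windows (15.6%) and 13.6% of all windows, and not in that of Abcc2.

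No other member of the Abcc subfamily had a difference as large as that of Abcc2. Of the 10 clusters Abcc2 was the 1 that limma called, and among the other 9 the differences between Mbd4 KO and control cells ran from -0.32 to 0.24 (log2) with a median of 0.10. Of these 9, 5 had an unadjusted p under 0.05, 2 higher and 3 lower, where 13.8% of all tested clusters had one. Over all clusters 1.39% were called, 0.431% higher and 0.955% lower, so that 1 call in 49 members (2.04%) stands close to the background. That call was known when the family was chosen, and nothing is read from it.

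**Figure D1:**
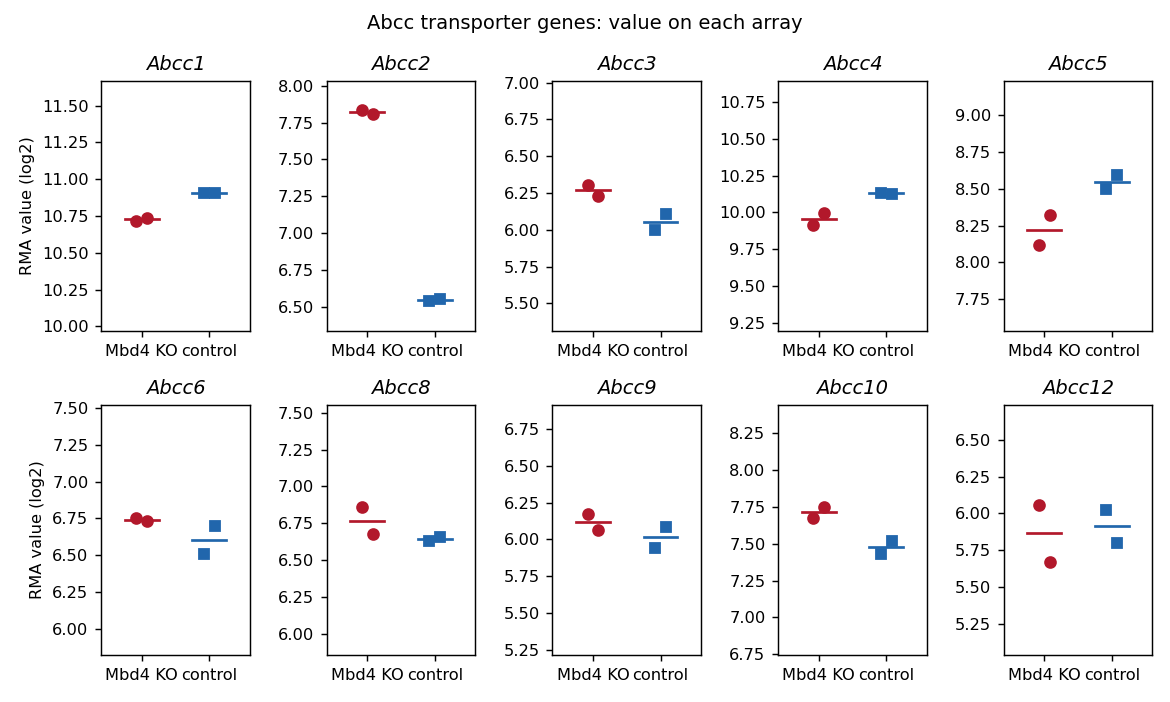
RMA values (log2, vertical axes of equal span in every panel) of the 10 Abcc genes on the 2 Mbd4 KO arrays (red circles) and the 2 control arrays (blue squares), with group means as lines. The Mbd4 KO arrays of Abcc2 sit at 7.83 and 7.81, against 6.54 and 6.55 in control arrays, while the other panels show mean differences between -0.32 and 0.24. Levels of different clusters cannot be compared, since each has its own probes.

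Among exporters of conjugates and lipid mediators, Abcc1, which encodes MRP1, the exporter of leukotriene C4 and glutathione conjugates, read 10.71 and 10.74 on Mbd4 KO arrays, against 10.91 on both control arrays. The groups did not overlap, but the difference of -0.18 ± 0.065 (log2, SE) did not pass limma's threshold (adjusted p = 0.306). Abcc3, whose product exports organic anions on the blood side of hepatocytes, read 6.31 and 6.23 in Mbd4 KO cells, against 6.00 and 6.10 in control cells. It too did not pass (difference 0.22 ± 0.075, log2, SE, with a 95% interval of 0.03 to 0.40; limma adjusted p = 0.287). Abcc4, an exporter of cyclic nucleotides and prostaglandins, read 9.914 and 9.998 in Mbd4 KO cells, against 10.13 on both control arrays (difference -0.17; limma adjusted p = 0.352).

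Abcc5, another exporter of cyclic nucleotides, read 8.12 and 8.32 on Mbd4 KO arrays, against 8.50 and 8.59 on control arrays. All Mbd4 KO values were lower, and the difference of -0.32 ± 0.091 (log2, SE) did not pass (limma adjusted p = 0.205). Abcc10, which encodes the drug exporter MRP7, read 7.68 and 7.75 in Mbd4 KO cells, against 7.43 and 7.52 in control cells, a difference of 0.24 (limma adjusted p = 0.239). Abcc6, whose product mediates release of ATP and limits tissue mineralization, differed by 0.14, and its Mbd4 KO arrays lay above its control arrays. The sulfonylurea receptor genes Abcc8 and Abcc9, subunits of ATP-sensitive potassium channels, differed by 0.13 and 0.10, and Abcc12 by -0.05 with overlapping groups (limma adjusted p = 0.533 to 0.922 for these 4). Thus in 8 of 10 Abcc clusters the groups did not overlap, 5 with Mbd4 KO arrays above and 3 below. Without Abcc2, whose rise was known beforehand, it was 7 of 9, 4 above and 3 below. Of all clusters 45.0% did not overlap (26.7% above and 18.3% below).

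Across the whole family 26 of 49 clusters had a difference above zero and 23 below, and the median difference was 0.03 (log2), against 0.02 over all tested clusters, of which 57.6% were above zero. Without Abcc2 the other 48 clusters ranged from -0.39 to 0.41, and limma called 0 of them. Of these 48, 16 (33.3%) had an unadjusted p under 0.05, 7 higher and 9 lower. With Abcc2 that was 17 of 49 (34.7%), where 13.8% of all tested clusters had such a p. Groups did not overlap in 28 of 49 clusters (57.1%), 18 with Mbd4 KO above and 10 with Mbd4 KO below. Without Abcc2 it was 27 of 48 (56.25%), 17 above and 10 below. Over all tested clusters the share was 45.0%, 26.7% above and 18.3% below. The 95% interval lay within 1.5-fold either way for 44 of the 48 clusters, and the highest upper bound among the 48 was 0.60 (log2), that of Abca1.

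**Figure D2:**
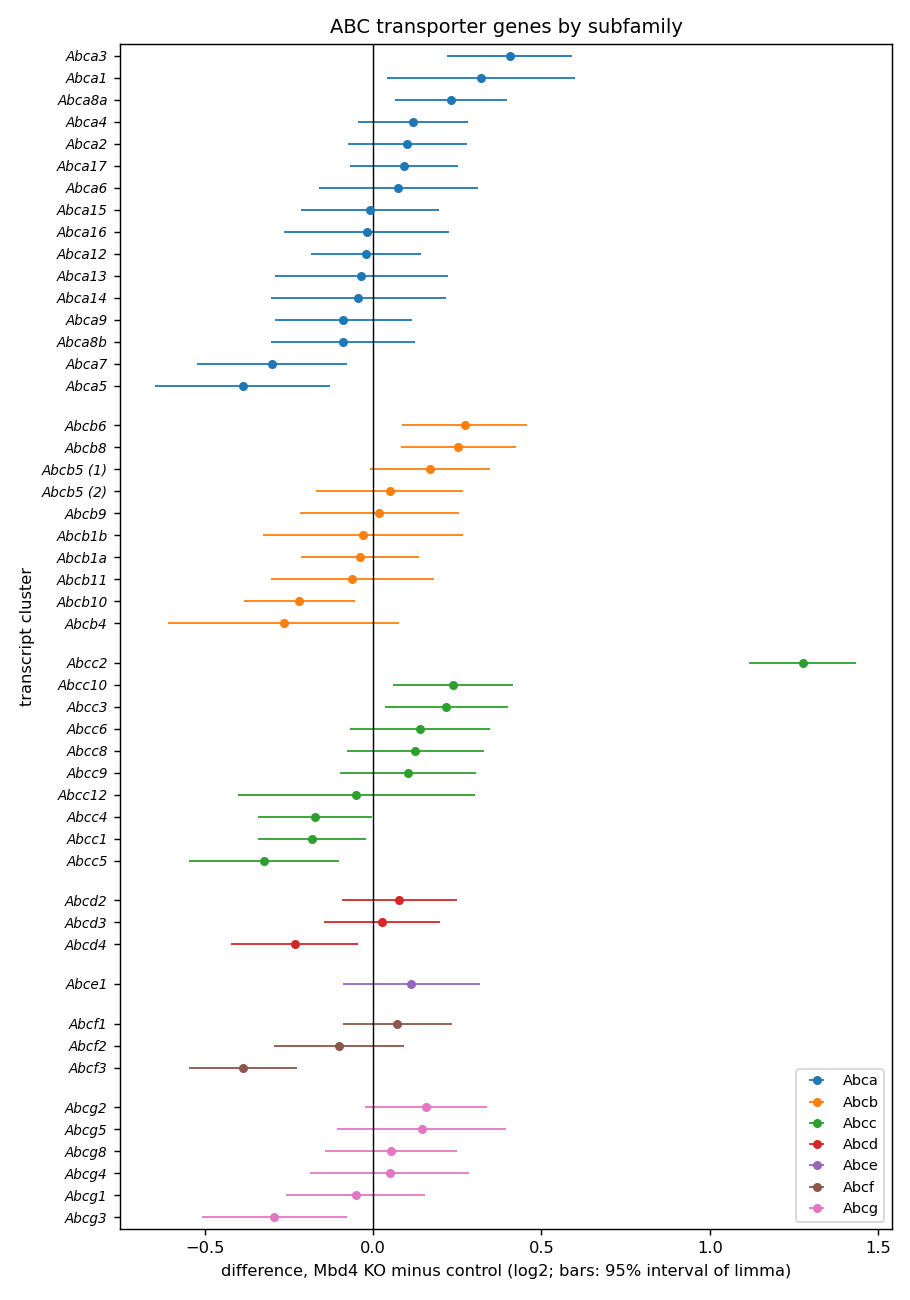
Difference between Mbd4 KO and control cells (log2, horizontal axis) for each of the 49 ABC clusters, grouped by subfamily from top to bottom and ordered by size within it. Points are limma's estimates and bars their 95% intervals. Abcc2 stands at 1.28, and the other 48 clusters lie between -0.39 and 0.41.

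Among the 16 Abca genes, which encode large lipid transporters, 0 were called, and 7 differences were above zero and 9 below. An unadjusted p under 0.05 was found for 5, where 13.8% of all tested clusters had one. Abca3, whose product loads surfactant lipids into the lamellar bodies of lung cells, read 9.23 and 9.21 on Mbd4 KO arrays, against 8.75 and 8.88 on control arrays. The groups did not overlap and the difference was 0.41 ± 0.076 (log2, SE), or 1.32-fold, past neither limma's threshold (adjusted p = 0.083) nor 1.5-fold. An intensity trend in the prior made it a call (limma adjusted p = 0.00632), as did removal of the dimmest 30% of clusters (0.0326). Abca1, the gene of the exporter that passes cholesterol and phospholipid to apolipoprotein A-I, read 8.59 and 8.92 in Mbd4 KO cells, against 8.42 and 8.45 in control cells. Its Mbd4 KO arrays spread by an SD of 0.228, and the difference of 0.32 did not pass (limma adjusted p = 0.301).

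At the other end of the subfamily, Abca5, a lysosomal member, read 6.56 and 6.49 in Mbd4 KO cells, against 6.77 and 7.05 in control cells. The difference was -0.39 ± 0.11 (log2, SE; limma adjusted p = 0.196), and -0.245 without control array 2. Abca7, linked to phospholipid transport and phagocytosis, read 7.96 and 7.99 in Mbd4 KO cells, against 8.16 and 8.38 in control cells, a difference of -0.30 (limma adjusted p = 0.233). Abca8a, at 5.17 and 5.23 in Mbd4 KO cells against 4.98 and 4.95 in control cells, differed by 0.23 (limma adjusted p = 0.224) at values under the lower quartile of every array. Its close copy Abca8b differed by -0.09, and probes of these genes may read both. The other 10 Abca genes differed by between -0.09 and 0.12.

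The Abcb subfamily had 10 clusters, with 0 called and 5 differences above zero and 5 below. An unadjusted p under 0.05 was found for 3, where 13.8% of all tested clusters had one. The genes of mitochondrial and haem transport had both its highest differences and 1 below zero. Abcb6, a porphyrin transporter gene, read 9.05 and 9.12 in Mbd4 KO cells, against 8.75 and 8.87 in control cells (difference 0.27 ± 0.076, log2, SE; limma adjusted p = 0.204). Abcb8, of the mitochondrial inner membrane, read 8.88 and 8.95 in Mbd4 KO cells, against 8.64 and 8.68 in control cells (difference 0.25; limma adjusted p = 0.197). Abcb10, which also sits in the mitochondrial inner membrane and serves haem synthesis, read 8.51 and 8.45 in Mbd4 KO cells, against 8.72 and 8.68 in control cells. Its difference had the other sign, -0.22 (limma adjusted p = 0.239), and in none of the 3 genes did the groups overlap. In the whole subfamily the groups did not overlap in 4 of 10 clusters, where 45.0% of all tested clusters did not.

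The P-glycoprotein genes Abcb1a and Abcb1b, which encode the classical multidrug exporter and are close copies that probes may not separate, differed by -0.04 and -0.03, with 95% intervals of -0.21 to 0.14 and -0.33 to 0.27. Abcb1b lay under the lower quartile on all 4 arrays, and Abcb1a, at 5.79 to 5.90, below the median of each. Both were thus dim, and a change in them could go unseen. Abcb4, the phosphatidylcholine exporter gene of bile, differed by -0.26 ± 0.14 (log2, SE; limma adjusted p = 0.479) and its groups overlapped. That value was -0.449 without Mbd4 KO array 1 and -0.0812 without Mbd4 KO array 2. Abcb11, the bile salt export pump gene and like Abcc2 a transporter of the bile canaliculus, differed by -0.06 at values of 5.43 and 5.25 in Mbd4 KO cells, against 5.49 and 5.31 in control cells. These lay under the lower quartile on all 4 arrays. The clusters of Abcb5 differed by 0.17 and 0.05, both without a call, and Abcb9, a lysosomal peptide transporter gene, by 0.02.

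Among the genes without a membrane part, Abcf3 came nearest to a call after Abcc2. It read 9.56 and 9.53 on Mbd4 KO arrays, against 9.92 and 9.94 on control arrays, a difference of -0.39 ± 0.066 (log2, SE), or 1.31-fold lower (limma adjusted p = 0.0634). It was called lower with an intensity trend (limma adjusted p = 0.0024) and without the dimmest 30% of clusters (0.0227). Abcf1, a translation initiation factor, differed by 0.07, Abcf2 by -0.10, and Abce1, which splits ribosomes after termination, by 0.11, at 11.69 and 11.67 in Mbd4 KO cells against 11.65 and 11.47 in control cells.

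In the Abcd subfamily, Abcd4, a lysosomal protein of vitamin B12 export, read 7.86 and 7.83 in Mbd4 KO cells, against 8.01 and 8.15 in control cells. Its difference of -0.23 ± 0.077 (log2, SE) did not pass (limma adjusted p = 0.267), and the peroxisomal fatty acid transporter genes Abcd2 and Abcd3 differed by 0.08 and 0.03. In the Abcg subfamily, Abcg3, at 5.59 and 5.43 in Mbd4 KO cells against 5.87 and 5.74 in control cells, differed by -0.29 (limma adjusted p = 0.232). Abcg2, a drug and urate exporter gene, differed by 0.16, and the sterol exporter genes Abcg1, Abcg4, Abcg5 and Abcg8 by between -0.05 and 0.14. Limma called 0 of 3 Abcd and 0 of 6 Abcg clusters, and 1 of each had an unadjusted p under 0.05. Over all tested clusters 13.8% had such a p.

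**Figure D3:**
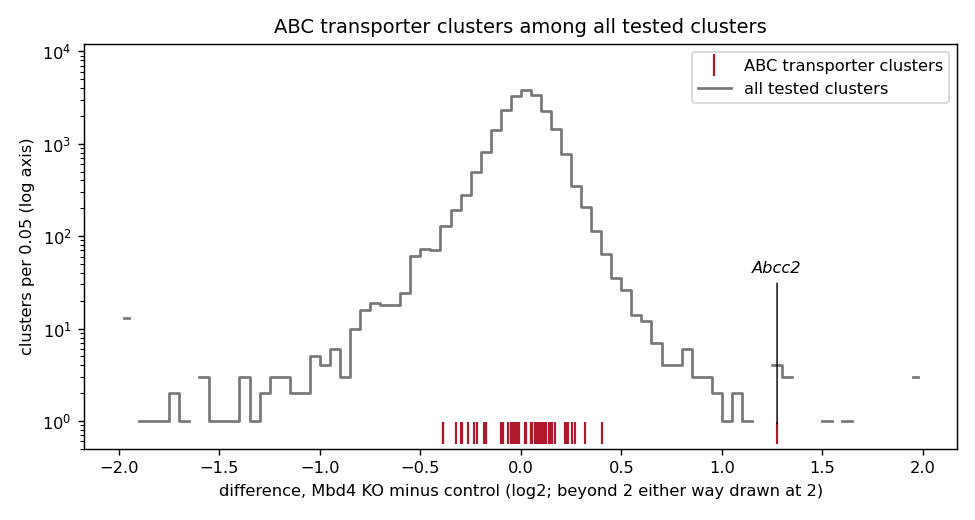
Distribution of the differences between Mbd4 KO and control cells (log2, horizontal axis, beyond 2 either way drawn at 2) over the 21789 tested clusters, as clusters per step of 0.05 on a log vertical axis (grey line), with the 49 ABC clusters as red ticks. The ABC clusters lie between -0.39 and 0.41, apart from Abcc2 at 1.28.

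Members differed in where they lay within the range of an array. On all 4 arrays 20 of 49 clusters lay above the array's median (40.8%, against 51.3% of all tested clusters) and 13 below its lower quartile (26.5%, against 18.7%). The 13 were 8 of the 16 Abca clusters, 4 of the 10 Abcb clusters (both of Abcb5 among them) and Abcg2, and 1 of them (Abca8a, 7.69%) had an unadjusted p under 0.05, against 8.40% of all tested clusters so placed. Of the 20 brighter clusters 12 (60.0%) had one, against 16.4% of all tested clusters so placed, and limma called none of these 20. All 3 Abcf genes and Abce1 lay above the median on every array. No detection call was part of the files used here, so a dim cluster may be unexpressed, and a change in it could go unseen.

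The 3 members on chromosome 16, Abcc1, Abcc5 and Abcf3, all had differences below zero (-0.18, -0.32 and -0.39, log2). On that chromosome 70.6% of 703 tested clusters were below zero and the median difference was -0.14, while the other chromosomes had medians from -0.02 to 0.04. The 30 tested clusters nearest to each of these members had medians of -0.14 for Abcc1, -0.19 for Abcc5 and -0.18 for Abcf3. The part of the chromosome in these values was not tested. Of the 46 members elsewhere, 20 were below zero. On chromosome 12, where 55.9% of tested clusters were below zero and the median was -0.02, Abcd4 (-0.23) had a local median of -0.08. Both clusters of Abcb5 on that chromosome were above zero, with a local median of -0.02. Abce1, Abcc12 and Abcb10 on chromosome 8 lay among genes with local medians of 0.01 to 0.03.

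**Figure D4:**
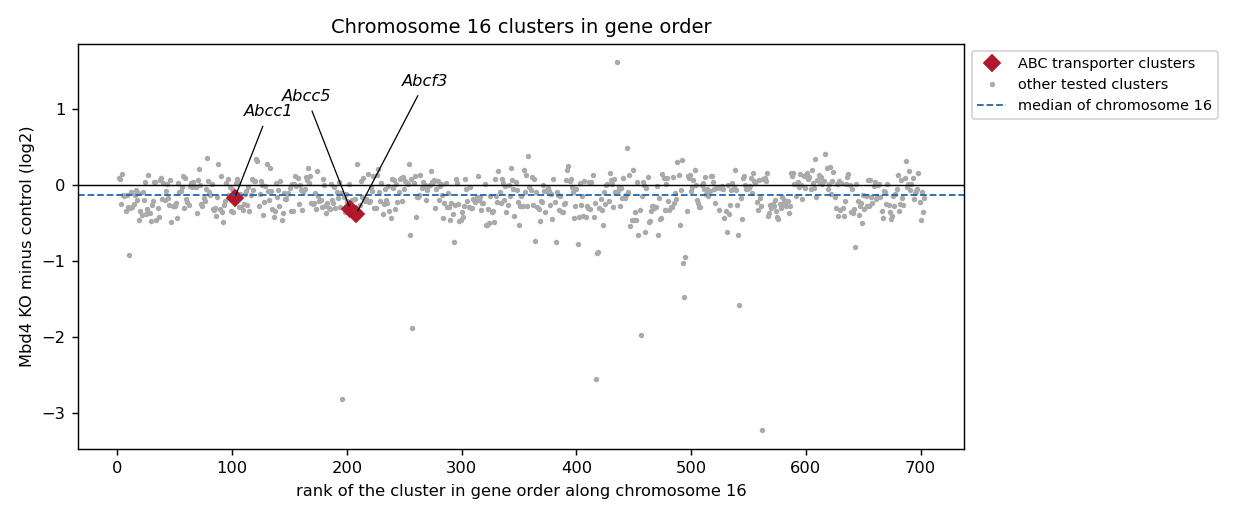
Difference between Mbd4 KO and control cells (log2, vertical axis) for the 703 tested clusters of chromosome 16 in gene order (horizontal axis, rank). Red diamonds are Abcc1, Abcc5 and Abcf3, grey points the other clusters, and the dashed line is the chromosome's median of -0.14, below zero.

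Around Abcc2 on chromosome 19 the median of the 30 nearest tested clusters was 0.03, and 11 of them were below zero. Among the 5 measured genes on each side, Cyp2c23, a cytochrome P450 gene of arachidonic acid metabolism, fell by 0.55 on the log2 scale, with an SE of 0.082 (limma adjusted p = 0.045). Leaving out any 1 array ended this call (0.117 to 0.23). Gm10768 differed by 0.40 (adjusted p = 0.195). The other 8, Nkx2-3, Slc25a28, Entpd7, Cox15, Cutc, Dnmbp, Cpn1 and Erlin1, differed by between -0.12 and 0.19 without a call.

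Genes that work with ABC transporters were read from 11 lists with 106 measured genes, of which limma called 5 (4.72%), 3 higher and 2 lower, against 1.39% of all tested clusters. The lists were chosen with earlier results known, among them 1 of these calls, that of Sult5a1. Of 19 enzymes that conjugate substrates to glutathione or sulfate and related enzymes, 2 were called higher and 1 lower. In this list 10 genes were above zero and 9 below. An unadjusted p under 0.05 was found for 4, 3 higher and 1 lower, where 13.8% of all tested clusters had one. Sult5a1, a sulfotransferase gene, read 7.93 and 8.09 on Mbd4 KO arrays, against 6.43 and 6.57 on control arrays (difference 1.51 ± 0.090, log2, SE; limma adjusted p = 0.0022). Mgst2, a microsomal glutathione S-transferase gene, read 7.33 and 7.63 in Mbd4 KO cells, against 8.88 and 8.90 in control cells, and fell by 1.41 (SE 0.11; limma adjusted p = 0.00527). Gsta4, the glutathione S-transferase gene for lipid aldehydes, read 6.63 and 6.65 in Mbd4 KO cells, against 6.22 and 6.16 in control cells (difference 0.45; limma adjusted p = 0.0459), a call lost with any 1 array left out (0.189 to 0.241).

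The remaining lists held 2 calls. Apoe, an apolipoprotein gene that takes up exported cholesterol, read 11.45 and 11.50 in Mbd4 KO cells, against 11.04 and 10.94 in control cells. It was the 1 of 10 genes of cholesterol handling that was called (difference 0.48; limma adjusted p = 0.0451). That call was lost with any 1 array left out, at differences of 0.44 to 0.53. Of these 10 genes 8 were above zero, and 3 had an unadjusted p under 0.05, all higher. Over all tested clusters 57.6% were above zero and 13.8% had such a p, shares that also stand beside the next list. Cpox, a haem synthesis gene on chromosome 16, read 9.49 and 9.70 in Mbd4 KO cells, against 10.60 and 10.64 in control cells. On that chromosome 40 of 703 tested clusters were called lower, against 0.955% of all tested clusters. The clusters beside Cpox in gene order, Ftdc2 and Gpr15, differed by 0.32 and -1.47. The part of the chromosome in the value of Cpox was not tested. Among 13 mitochondrial iron-sulfur and haem genes 7 were below zero, and 2 had an unadjusted p under 0.05, 1 higher and 1 lower. Cpox was the 1 that was called (difference -1.02; limma adjusted p = 0.00804). That call was lost without control array 1 (0.059) or control array 2 (0.0687).

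Apart from the conjugating enzymes above, the lists of regulators and partners of Abcc2 held no call in limma's fit without a trend. The counts at an unadjusted p under 0.05 below stand beside 13.8% of all tested clusters, and the count above zero beside 57.6%. Of 11 receptors and factors that sense sterols and xenobiotics, 0 were called and 0 had an unadjusted p under 0.05, and the largest difference was that of Srebf2 (0.15). Of 11 genes of NRF2 and glutathione supply 0 were called and 3 had an unadjusted p under 0.05, with Gsr, glutathione reductase, at -0.38 (limma adjusted p = 0.0763). Gsr was called lower with an intensity trend (limma adjusted p = 0.0166) and without the dimmest 30% of clusters (0.0288). Of 7 membrane anchors, which include radixin, the protein that holds MRP2 at the canaliculus, 0 were called (3 at an unadjusted p under 0.05), the largest difference being that of Pdzd3 (0.22). Of 12 organic anion uptake genes 0 were called (1 at an unadjusted p under 0.05), 11 were above zero with a median of 0.09, and Slco4a1 differed by 0.33 (limma adjusted p = 0.278).

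The lists not yet named held 0 calls in limma's fit without a trend as well. Tap1, Tap2 and Cftr, ABC genes whose symbols fall outside the family's naming, differed by -0.24, 0.12 and -0.0013. Among 8 peroxisomal genes the largest difference was that of Slc27a2 (0.12), and of the 2 potassium channel pore genes that of Kcnj8 (-0.10). Among 10 genes of ribosome recycling and GCN2, each read by its brightest cluster, it was that of Nemf (-0.25, limma adjusted p = 0.184). Nemf was a call with an intensity trend (limma adjusted p = 0.0346). Ltn1, in the same list and on chromosome 16, had 16 clusters. Its brightest differed by -0.16, and the 16 ran from -0.45 to -0.16, so that some exceeded Nemf in size. At an unadjusted p under 0.05 the lists of other ABC genes, peroxisomal, ribosome recycling and channel pore genes held 1 of 3, 0 of 8, 1 of 10 and 0 of 2 genes. Over all tested clusters 13.8% had such a p.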

How the data were processed

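The deposited log2 values, 1 per transcript cluster and array, were made by the authors with RMA (background correction, quantile normalization and summary of probes), per the submitters' processing notes. Its settings are unknown here. Levels span 2.69 to 14.7. No raw intensities were used, so signal over background is unknown. Symbols came from the array platform's annotation, possibly out of date: 21789 clusters had 1 symbol, 1621 several and 12146 none, and only the first were tested. Chromosomes and promoter sequences came from RefSeq, GRCm38.p6.

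The comparison used R 4.3.3 with limma 3.58.1 (lmFit, then eBayes without a trend or robust prior). Tests were two-sided, p-values were adjusted by Benjamini and Hochberg's method over the 21789 clusters, and the threshold was 0.05. An exact permutation test of 2 against 2 arrays cannot go below p = 0.333. Partner lists used the brightest cluster of each gene. On simulated data for this comparison (21789 clusters, 200 changed), limma recovered 14% of log2 changes of 0.5 and 91% of changes of 1, with 5 unchanged clusters called. Named genes are Mbd4, all Abcc genes, the extremes of each other subfamily, any call, chromosome 16 members, close copies, the neighbours of Abcc2 and the largest difference and calls of each list; other members are named after their values were seen, as is the choice of promoters shown. Members, lists and rule were chosen with earlier results of these data known. Alternatives were a replicate block, leaving out each array, an intensity trend, a robust prior, no dim clusters, quantile or cyclic loess normalization, all clusters, other thresholds, no moderation and 1 value per gene. Figures used matplotlib 3.10.9. No 2 arrays shared more than 39 of 35556 values.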

Additional observations from a re-analysis of the deposited data

How the results depend on the processing

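The count of ABC clusters called was 1 (Abcc2) in limma's fit and also with the replicate number as a block, with any 1 array left out, with a robust prior, with either normalization, with all clusters of the table, at 1.5-fold or more and with 1 value per gene. It was 3 with an intensity trend, without the dimmest 30% of clusters and at an adjusted p of 0.1, where Abca3 (0.41) and Abcf3 (-0.39) joined, as Gsr (-0.38) did among partner genes. It was 0 without moderation of the variance, where Abcc2 kept its difference of 1.275 but not its call, with 9 members at an unadjusted p under 0.05. The median ABC difference stayed between 0.02 and 0.06 under all alternatives. Over all clusters the count of 302 became 65 to 75 with 1 array left out, 159 with the replicate block, 1121 with the trend, 640 without the dimmest 30%, 22 with all clusters, 593 at an adjusted p of 0.1, 185 at 1.5-fold or more and 0 without moderation (2469 at an unadjusted p under 0.05). Fewer arrays, fewer clusters or another threshold enter some of these by construction, and otherwise the cause was not tested. Same-numbered arrays had deviations from their group means that correlated at 0.0831 across clusters. With 2 arrays per group this value cannot show whether a shared number marks a shared culture, and the labels do not say. The block also ended the calls of Gsta4 (limma adjusted p = 0.0891), Apoe (0.0892) and Cyp2c23 (0.0844). Gsta4 also lost its call with quantile (0.0567) or cyclic loess normalization (0.0529). With all clusters of the table, Sult5a1, Mgst2, Cpox, Apoe, Gsta4 and Cyp2c23 were not called (0.0627 to 0.199). With 1 array left out, values of uncalled members named by the rule moved by over 1.5 times for Abca5 (-0.527 to -0.245), Abcb4 (-0.449 to -0.0812), Abcc6 (0.0461 to 0.233), Abcc8 (0.0357 to 0.215), Abcc9 (0.0335 to 0.174), Abcd2 (0.0435 to 0.113), Abce1 (0.0243 to 0.204) and Abcg2 (0.0982 to 0.215). Values of members not named by the rule, Abca1 and Abcg5 among them, were not traced in this way and may move as much. Signs turned for values near zero. With 1 array left out, Abcc12 ranged from -0.241 to 0.142 (0.0629 without control array 1), Abcb1a from -0.0813 to 0.0037, Abcb1b from -0.206 to 0.147, Abca8b from -0.185 to 0.0078, Erlin1 from -0.0054 to 0.0232 and Dnmbp from -0.0818 to 0.0871. Dnmbp was also below zero with quantile (-0.0079) and cyclic loess normalization (-0.0085).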

Other observations

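Several ABC genes lie beside each other on their chromosomes. Abca3 and Abca17, which start back to back on chromosome 17, differed by 0.41 and 0.09 (log2, Mbd4 KO minus control), and the Mbd4 KO arrays lay above the control arrays in both. The 30 nearest tested clusters outside the family had a median of 0.06. In the row of Abca8b, Abca8a, Abca9, Abca6 and Abca5 on chromosome 11, the differences were -0.09, 0.23, -0.09, 0.08 and -0.39, and the nearest clusters had a median of 0.03. Abcg5 and Abcg8, which encode partner subunits of 1 sterol exporter and whose promoter windows share 209 bases, differed by 0.14 and 0.05, with overlapping groups in both. Abca14, Abca15 and Abca16 on chromosome 7 differed by -0.04, -0.01 and -0.02, and Abcb1a, Abcb1b and Abcb4 on chromosome 5 by -0.04, -0.03 and -0.26, with overlapping groups in all of these. Of the groups of neighbours given here, the row on chromosome 11 was the 1 with differences of both signs in limma's fit. This does not set it apart, since the signs of Abcb1a and Abcb1b, and of Abca8b in that row, turned with 1 array left out. The groups given are also not all: Abcb8 and Abcf2, near each other on chromosome 5, differed by 0.25 and -0.10. Limma called none of the clusters in the groups given, and 3 of them (Abca3, Abca5 and Abca8a) had an unadjusted p under 0.05. Over all tested clusters 13.8% had such a p, and in 45.0% the groups did not overlap.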
